A study of Mus musculus with 24 samples.

Results

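The 10 genes of the vascular endothelial growth factor (Vegf) system followed here are the ligands Vegfa, Vegfb, Vegfc, Vegfd and Pgf, the receptor tyrosine kinases Flt1 (Vegfr1), Kdr (Vegfr2) and Flt4 (Vegfr3), and the co-receptors Nrp1 and Nrp2. They were chosen by name from the 22282 genes that the deposited RefSeq transcript values give when transcripts of 1 symbol are summed, and all 10 averaged 1 FPKM or more over the 24 libraries and were tested. FPKM stands for fragments per kilobase of transcript scaled to the size of the library.

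The libraries are poly(A) RNA of mouse cells, 3 per group in 8 groups. MACs are amniotic cells that were cultured from C57BL/6 embryos at mid-gestation, E11.5 to E13.5, with male and female embryos mixed. RACVECs are MACs that were converted towards endothelium with lentiviruses for the Ets factors Etv2, Erg and Fli1 under a PGK promoter, in endothelial medium with a TGF-β inhibitor and added mouse Vegf-A protein. All groups are C57BL/6. Akt-MACs and Akt-RACVECs additionally carry myristoylated Akt1, a constitutively active form, and Sox17-RACVECs carry a Sox17 virus. Akt-LECs and Akt-liver ECs are adult lung and liver endothelial cells kept in culture with the same Akt1 and sorted for VE-cadherin and CD31. LSECs are endothelial cells of the liver that were sorted without culture after labelling in the living mouse. The LSECs therefore differ from all other groups in not having been cultured, and the Sox17-RACVECs alone went through puromycin selection.

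In vertebrates Vegfa binds Kdr, the main signalling receptor of blood vessel endothelium, and Flt1, which binds Vegfa tightly but signals weakly and so acts largely as a trap. Among the receptor tyrosine kinases, Pgf and Vegfb bind Flt1 alone. Vegfc and Vegfd bind Flt4, the receptor of lymphatic vessels, and processed Vegfc also binds Kdr. Nrp1 holds Vegfa next to Kdr, and Nrp2 is the co-receptor that lymphatic and venous endothelium use with Vegfc and Flt4.

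Several libraries stood apart and bear on the values below. The library labelled Sox17-RACVEC 2 listed Etv2 at 0, against 458 and 378 FPKM in the other 2 Sox17-RACVEC libraries, and listed Erg at 387 FPKM, against 4.49 and 0. Its Akt1 was at 1323 FPKM, the highest of all libraries, against 884 and 916. Fold changes that involve the Sox17-RACVECs are therefore given with and without it. Akt-MAC 1, 2 and 3 held the macrophage gene Adgre1 at 56.6, 1648 and 4105 FPKM, and the 7 macrophage markers present in the files summed to between 911 and 42368 FPKM in the Akt-MACs against 0.79 to 14.7 in the MACs. The lymphatic factor Prox1 was at 111 and 433 FPKM in Akt-LEC 1 and 2, and at 39.3, 683 and 703 in the 3 Akt-liver ECs, but at 0.79 in Akt-LEC 3 and at most 9.72 in all other libraries. The LSECs held markers of red cells (34826 to 38713 FPKM summed over 5 genes), macrophages and hepatocytes. Akt-LEC 1 and Akt-liver EC 1 held the mesenchymal gene Col1a1 at 1065 and 556 FPKM, against at most 5.66 in the other libraries of their groups, and Lyz2 of macrophages at 1225 and 777 FPKM, and Akt-liver EC 1 held the epithelial genes Krt18 and Krt8 at 654 and 490 FPKM. The endothelial markers, 10 genes, summed to between 63.5 and 154 FPKM in MACs and Akt-MACs and to at least 2642 FPKM in every other library. Among the other transduced genes, whose viral and native transcripts were not separated, Etv2 was listed at 0 in all libraries without the Ets viruses and Erg was at only 3.91, 13.8 and 0.90 FPKM in the RACVECs. Akt1 was higher in the Akt-MACs (848 to 1279 FPKM) than in the MACs (551 to 692), whereas Akt-liver ECs (559 to 892) overlapped the MACs, and Sox17 was at 5.09, 40.1 and 200.1 FPKM in the Sox17-RACVECs against 0 in the RACVECs.

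Kdr lies on mm9 chr5:76328852-76374483 (minus strand) and Flt1 on chr5:148373180-148537587 (minus strand). The 250 bases before their RefSeq starts (GRCm38.p6 table, each found once in mm9, at chr5:76374481-76374730 and chr5:148537588-148537837) are shown because both receptors are compared below between cells with and without the transduced Ets factors. Capitals mark the Ets core, GGAA on either strand.
Kdr: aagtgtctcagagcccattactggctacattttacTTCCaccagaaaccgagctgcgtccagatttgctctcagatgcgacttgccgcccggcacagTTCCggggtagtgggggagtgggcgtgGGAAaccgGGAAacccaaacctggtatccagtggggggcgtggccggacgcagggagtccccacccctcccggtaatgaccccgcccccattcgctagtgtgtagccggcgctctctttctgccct
Flt1: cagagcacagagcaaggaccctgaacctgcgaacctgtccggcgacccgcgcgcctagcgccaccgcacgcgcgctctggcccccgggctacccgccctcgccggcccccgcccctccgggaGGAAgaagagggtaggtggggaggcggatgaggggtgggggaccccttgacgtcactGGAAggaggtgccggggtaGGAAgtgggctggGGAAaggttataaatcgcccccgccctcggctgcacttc
Both windows hold 4 matches. Of 32851 mouse promoter windows of the same length, 93.4% held at least 1 match and 33.4% held at least 4, so 4 matches are common. The longer form (A/C)GGAA(G/A), the Ets-like motif most preferred in the paper's Fli1 regions, had 0 matches for Kdr and 2 for Flt1. At least 1 such match was in 57.2% of all windows and at least 2 in 24.2%. The Sox core ACAAT, searched on both strands, was in 0 of these 2 windows and in 27.7% of all windows.

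Kdr was low in amniotic cells and rose with conversion. It was at 1.99, 2.84 and 11.8 FPKM in the MACs, at 14.3, 8.76 and 3.15 in the Akt-MACs and at 97.1, 206 and 179 in the RACVECs. It was at 1034, 1016 and 1198 FPKM in the Akt-RACVECs and at 366, 883 and 374 in the Sox17-RACVECs. The cultured adult cells held 303, 1429.9 and 441 FPKM (Akt-LECs) and 427, 1298 and 1171 FPKM (Akt-liver ECs), and the LSECs held 4281, 3395 and 3366. The order of the means was LSEC, Akt-RACVEC, Akt-liver EC, Akt-LEC, Sox17-RACVEC, RACVEC, Akt-MAC and MAC. LSECs did not overlap Akt-RACVECs, RACVECs did not overlap Sox17-RACVECs above or Akt-MACs below, and the other neighbours in this order overlapped. In limma on log2(FPKM + 1), Kdr was higher in RACVECs than in MACs by 4.87 on the log2 scale (SE 0.62, adjusted p = 0.000187). The header of RACVEC 3 carries the words Flk1 (another name of Kdr) and GFP+ and names day 65. Without RACVEC 3 the difference was 4.76. A fit of only the 6 RACVEC and MAC libraries gave a difference of 4.87 with an adjusted p of 0.098.

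**Figure D1:**
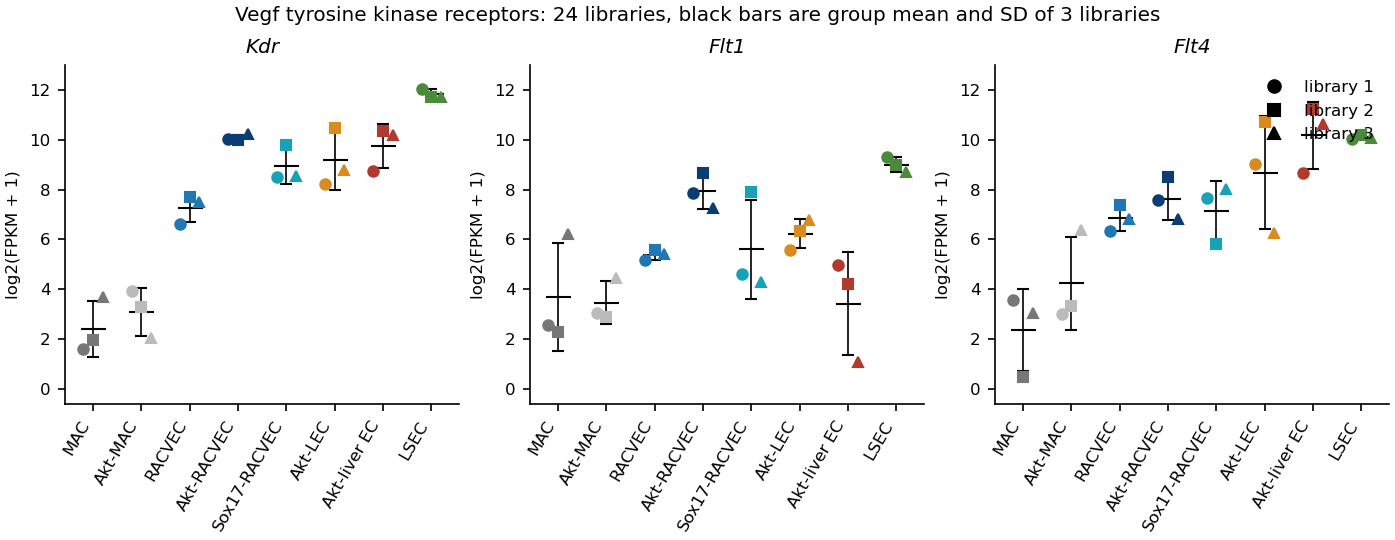
Level of Kdr, Flt1 and Flt4, as log2(FPKM + 1), in each of the 24 libraries by group (symbols mark library 1, 2 and 3, black bars the mean and SD of 3). Kdr climbs from MACs (1.99 to 11.8 FPKM) over RACVECs (97.1 to 206) to Akt-RACVECs (1016 to 1198), and Flt4 spans 74.7 to 1705 FPKM within the Akt-LECs.

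With Akt in addition, the Kdr level of converted cells was above that of each RACVEC library, yet the difference of 2.81 (SE 0.62, 95% interval 1.51 to 4.11) had an adjusted p of 0.0550 in limma and was not called. It was called with a pseudocount of 10 (adjusted p = 0.0197), when genes averaging under 10 FPKM were left out (0.0469) and when the library labelled Sox17-RACVEC 2 was left out of the common fit (0.0208). It was not called without RACVEC 3 (2.92, adjusted p = 0.130) or without any other 1 library of the 2 groups (0.0577 to 0.213), and the highest adjusted p of any alternative was 0.289. In the Sox17-RACVECs, Kdr differed from the RACVECs by 1.69 (SE 0.62, unadjusted p = 0.0138, adjusted p = 0.596), and by 1.27 (SE 0.68) without Sox17-RACVEC 2, and the libraries did not overlap either way. The Akt-MACs and MACs overlapped in Kdr. The Akt effect on Kdr in RACVECs exceeded that in MACs by 2.12 (SE 0.88, adjusted p = 0.327), which did not pass the test. Without Akt-MAC 2 and 3 it was 1.27 (SE 1.04), resting on 1 Akt-MAC library that is assumed to vary like the other groups. In the same interaction Flt1 was at 2.78 (SE 1.46), Vegfd at -2.32 (SE 1.79), Flt4 at -1.10 (SE 1.5) and Nrp1 at 1.05 (SE 1.38), and none passed.

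Flt1 was at 34.8, 46.6 and 41.7 FPKM in the RACVECs, within the range of the MACs, which held 4.87, 3.91 and 72.5. The difference between them was 1.70 (SE 1.04, adjusted p = 0.380). The Akt-RACVECs held 235, 402 and 152 FPKM, above every RACVEC, with a difference of 2.55 (SE 1.04, unadjusted p = 0.0238, adjusted p = 0.233). The Sox17-RACVECs held 23.7, 238 and 18.4 FPKM, so that the only high value is that of the library labelled Sox17-RACVEC 2. Against the Akt-RACVECs they differed by -2.33 (SE 1.04, adjusted p = 0.615), and by -3.48 (SE 1.02, adjusted p = 0.0767) without that library. The Akt-LECs held 47.2, 79.4 and 108 FPKM, the Akt-liver ECs 30.4, 17.4 and 1.13, the Akt-MACs 7.15, 6.33 and 20.8, and the LSECs 632, 505 and 418. Only the LSECs lay above all Akt-RACVEC libraries, and the Akt-liver ECs lay at the level of the amniotic cells.

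Flt4 (mm9 chr11:49422765-49466241, plus strand) was at 10.7, 0.38 and 7.15 FPKM in the MACs and at 80.4, 165 and 113 in the RACVECs. It rose by 4.51 on the log2 scale (SE 1.06, adjusted p = 0.0257 in limma), and the groups did not overlap. The call was lost without MAC 2 (3.56, adjusted p = 0.0706), without RACVEC 2 (4.24, 0.105), without RACVEC 3 (4.52, 0.0770), with a pseudocount of 10 (3.01, 0.0778) and in a fit of only the 2 groups (0.154). The Akt-RACVECs held 193, 363 and 111 FPKM, the Sox17-RACVECs 199.8, 55.4 and 257, and the Akt-MACs 7.01, 9.0 and 81.4. The Akt-RACVECs overlapped the RACVECs. Sox17-RACVEC 1 and 3 lay above every RACVEC and only the library labelled Sox17-RACVEC 2 below, with a difference from RACVECs of 0.31 (SE 1.06) with that library and 0.98 (SE 1.16) without it, neither of which passed. The adult cultures varied most: 525, 1705 and 74.7 FPKM in the Akt-LECs and 406, 2425 and 1579 in the Akt-liver ECs, around the LSECs at 1042, 1167 and 1084.

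Counted over the members, 2 of 10 (Kdr and Flt4, both higher) passed in RACVECs against MACs, where 2.71% of the 14964 genes tested passed. To pass, a gene needed a change of more than 1 in size on the log2 scale together with an adjusted p under 0.05. In Akt-RACVECs against Akt-MACs, 4 of 10 passed against 19.5% of all genes: Kdr was higher by 6.99 (SE 0.62, adjusted p = 8.64e-07), Flt1 by 4.48 (SE 1.04, 0.00553), Flt4 by 3.41 (SE 1.06, 0.0267) and Pgf by 4.08 (SE 1.37, 0.0376). These groups differ in the Ets factors and in the conversion culture together, and macrophage genes are present in the Akt-MACs, least in Akt-MAC 1 (summed markers 911 FPKM). Without Akt-MAC 2 and 3 the group is that 1 library, assumed to vary like the other groups. Kdr then remained called (6.14, adjusted p = 0.000277), while Flt1 (4.91, 0.0670), Flt4 (4.64, 0.0632) and Pgf (4.40, 0.231) did not pass. The calls of Flt4 and Pgf were also lost without single libraries, Flt4 without Akt-MAC 1 (0.102), Akt-MAC 2 (0.108), Akt-RACVEC 1 (0.0586) or Akt-RACVEC 2 (0.0986), and Pgf without any of Akt-MAC 1, 2 or 3 or Akt-RACVEC 1 or 2 (0.0686 to 0.203).

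In all comparisons among cultured endothelial and converted cells, 0 members passed in limma. The background was 0.261% of genes in Akt-RACVECs against RACVECs, 0.00668% in Sox17-RACVECs against RACVECs, 0% in Sox17-RACVECs against Akt-RACVECs (602 genes past the fold at an unadjusted p below 0.05), 0.261% in RACVECs against Akt-LECs, 0.00668% in Akt-RACVECs against Akt-LECs, 0.0735% in Sox17-RACVECs against Akt-LECs and 0.0134% in Akt-LECs against Akt-liver ECs. At such backgrounds a count of 0 says little about the members. Without the library labelled Sox17-RACVEC 2, 0.0601%, 2.27% and 0.735% of genes passed in the 3 Sox17 comparisons, in the order given. The members then had 1 gene that passed, Vegfc, which was listed at 0 in both remaining Sox17-RACVEC libraries, against Akt-RACVECs (adjusted p = 0.00666) and against Akt-LECs (0.0319). In Akt-MACs against MACs, 0 members passed where 2.81% of genes did (Flt4 differed by 1.88, SE 1.06, and Vegfd by -1.17, SE 1.27), and 0 passed in the interaction, where 0.1% did.

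**Figure D2:**
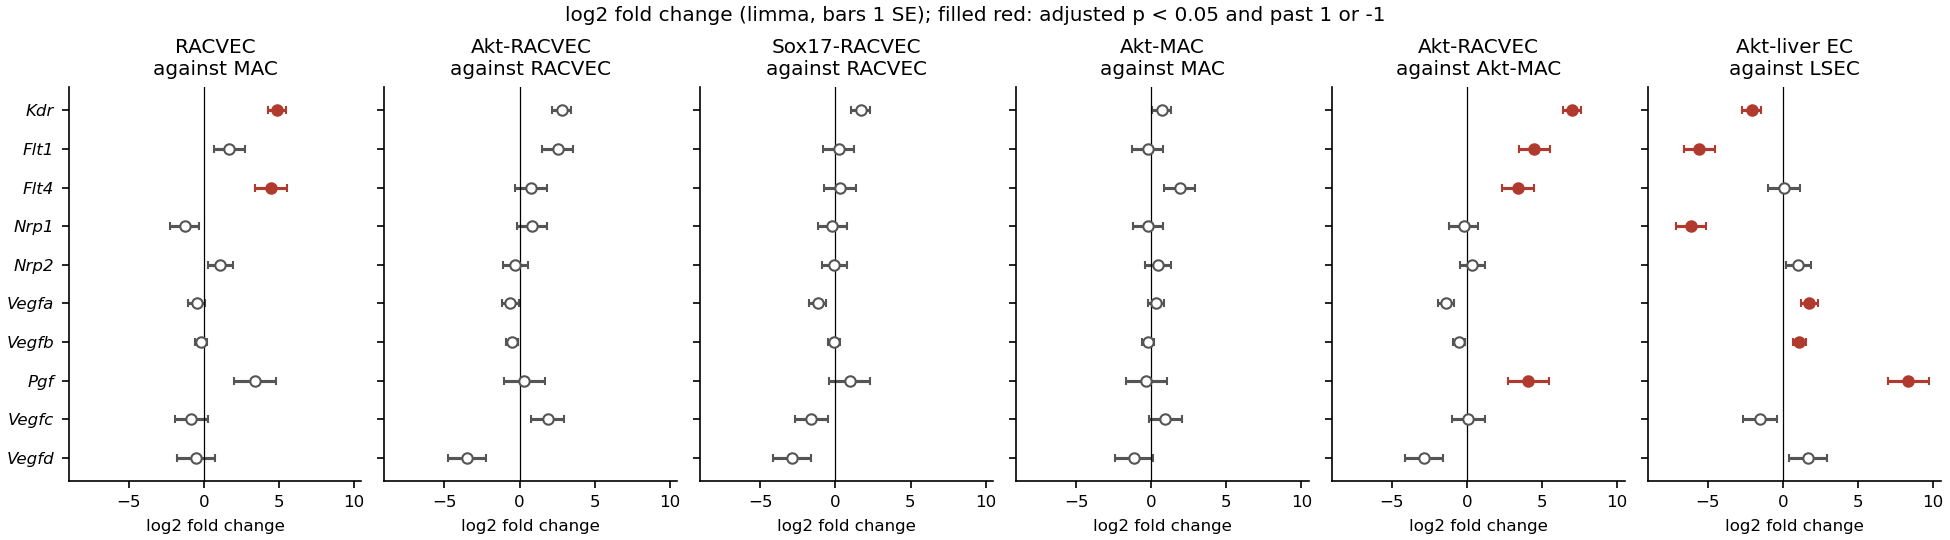
The log2 fold change of each member with 1 SE in 6 comparisons, filled red where a member passed. Kdr and Flt4 are filled for RACVEC against MAC, Kdr, Flt1, Flt4 and Pgf for Akt-RACVEC against Akt-MAC, and 6 members for Akt-liver EC against LSEC, where Pgf was listed at 0 in every LSEC library so that its plotted value depends on the pseudocount.

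Against RACVECs, the cultured lung cells held more Kdr in each library, and RACVECs differed from Akt-LECs by -1.91 (SE 0.62, unadjusted p = 0.00636, adjusted p = 0.220). With Akt, the converted cells differed from Akt-LECs in Kdr by 0.91 (95% interval -0.39 to 2.20) and in Flt1 by 1.70 (SE 1.04, 95% interval -0.47 to 3.88), and the libraries of Kdr overlapped while those of Flt1 did not. Other members past 1 in these comparisons had wide intervals. RACVECs differed from Akt-LECs in Vegfd by 2.97 (SE 1.27, adjusted p = 0.379), in Flt4 by -1.82 (0.535) and in Pgf by -1.07 (0.838). Akt-RACVECs differed from Akt-LECs in Flt4 by -1.03, in Nrp1 by 1.05 and in Nrp2 by -1.07 (adjusted p from 0.778 to 0.846), and Akt-LECs differed from Akt-liver ECs in Flt1 by 2.81 (SE 1.04, unadjusted p = 0.0141, adjusted p = 1), in Nrp1 by 1.91 and in Flt4 by -1.51. Sox17-RACVECs differed from Akt-RACVECs in Kdr by -1.13 (SE 0.62, adjusted p = 0.712), or -1.54 (SE 0.68, 0.243) without Sox17-RACVEC 2, and in Nrp1 by -1.03 (SE 0.98, 0.905), or -1.64 (SE 1.07, 0.485) without it. They differed from Akt-LECs in Flt4 by -1.51 (SE 1.06, adjusted p = 0.760), or -0.84 (SE 1.16, 0.838) without it. None passed, and none of these intervals shows that the groups are alike.

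Between cultured and freshly sorted liver endothelium, 6 of 10 members passed beside 27.0% of all genes. Nrp1 was lower in Akt-liver ECs, with a log2 fold change of -6.12 (SE 0.98, adjusted p = 0.000104), as were Flt1 at -5.58 (SE 1.04, 0.000453) and Kdr at -2.08 (SE 0.62, 0.0144). Vegfa was higher by 1.76 (SE 0.56, 0.0196) and Vegfb by 1.10 (SE 0.40, 0.0411). Pgf was listed at 0 in the 3 LSEC libraries and at 625, 348 and 158 FPKM in the Akt-liver ECs (adjusted p = 0.000138). Flt4, Nrp2 (1.03, SE 0.83), Vegfc (-1.53, SE 1.12) and Vegfd (1.64, SE 1.27) did not pass. Vegfc did not overlap between the groups, and it passed in a fit of these 2 groups alone (adjusted p = 0.0310). The calls of Flt1, Nrp1 and Pgf held without each single library. Over all alternatives, those of Flt1 and Pgf held (highest adjusted p 0.0326 and 0.0187), while that of Nrp1 was lost (0.0564). That of Kdr was lost without Akt-liver EC 1 (-1.57, adjusted p = 0.0805) or LSEC 1 (-1.96, 0.0509), that of Vegfa without Akt-liver EC 2 (0.0546) or LSEC 1 (0.0550) and with its highest transcript row alone (1.17, 0.344), and that of Vegfb without Akt-liver EC 3 (0.68, 0.232), without any 1 LSEC library (0.0728 to 0.0977), and after scaling each library by its median shift (1.01, 0.0743). Culture, Akt1, the sort and the other cell types in the LSEC libraries differ together between these groups and cannot be told apart. In such bulk libraries fewer cells of a type and less RNA per cell cannot be told apart either.

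Nrp1 (mm9 chr8:130882973-131029362) was the member with the most even level in amniotic cells and the widest spread in liver cultures. It was at 327, 327 and 299 FPKM in the MACs, 247, 304 and 268 in the Akt-MACs, 165, 126 and 108 in the RACVECs and 208, 122.67 and 496 in the Akt-RACVECs. The RACVECs lay below every MAC library, with a difference of -1.27 (SE 0.98, adjusted p = 0.505). The Sox17-RACVECs held 96.0, 269.6 and 57.0 FPKM and the Akt-LECs 180.2, 62.3 and 125. The Akt-liver ECs held 264, 30.03 and 2.30 FPKM, the highest in the library with mesenchymal and epithelial genes, while the LSECs held 2688, 1897 and 1804, far above all other libraries.

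Nrp2 (mm9 chr1:62749859-62865269) did not pass the F test over the 8 groups (limma, adjusted p = 0.171). It was at 571, 64.1 and 84.96 FPKM in the MACs, 483, 194 and 324 in the RACVECs, 267, 126 and 498 in the Akt-RACVECs and 189, 611 and 219 in the Sox17-RACVECs. RACVECs and MACs differed by 1.09 (SE 0.83, adjusted p = 0.505), and every neighbouring pair of groups overlapped. The highest values were those of Akt-LEC 2 (1775 FPKM) and of Akt-liver EC 2 and 3 (1726 and 1234), while Akt-LEC 1 and 3 held 315 and 278 and Akt-liver EC 1 held 313. The LSECs held 458, 419 and 409 FPKM and the Akt-MACs 156, 149 and 348.

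The 3 libraries with the highest Prox1 (433, 683 and 703 FPKM) were also those with the highest Nrp2, and they had the highest Flt4 of all 24 (1705, 2425 and 1579 FPKM). In the 2 Akt-liver EC libraries of this kind, Nrp1 was at 30.03 and 2.30 FPKM and Flt1 at 17.4 and 1.13, in both genes the lowest values among the cultured adult and converted libraries. Akt-LEC 2 held 62.3 FPKM of Nrp1 and 79.4 of Flt1. Lyve1 and Ccl21a, which lymphatic endothelium also makes, were at 3350.3 and 4646 FPKM in Akt-LEC 2, at 5333 and 1519 in Akt-liver EC 2 and at 7229 and 184 in Akt-liver EC 3. Lyve1 alone does not mark these libraries: it was at 1192 FPKM in Akt-LEC 3, 1452 to 2164 in the LSECs and 440.3 to 978 in the Akt-RACVECs. Pdpn was at 175, 544 and 988 FPKM in the 3 libraries, against 323 to 374 in the MACs. Reln was at 83.8, 137 and 10.2 FPKM in the 3 libraries, beside 22.9 in Akt-LEC 1, 14.8 in Akt-liver EC 1 and 193 in MAC 3. Akt-LEC 3, with Prox1 at 0.79 FPKM, had the lowest Flt4 of the adult cultures (74.7 FPKM). All 5 lymphatic markers summed to between 1197 and 8689 FPKM in the Akt-LECs and between 2220 and 9115 in the Akt-liver ECs, beside 1465 to 2193 in the LSECs and 440.3 to 1135 in the Akt-RACVECs, and the lowest Akt-LEC sum was nearly all Lyve1. The adult cultures differ within each group in Prox1, and what part of the spread in Flt4, Nrp2, Nrp1 and Flt1 goes with it was not tested.

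**Figure D3:**
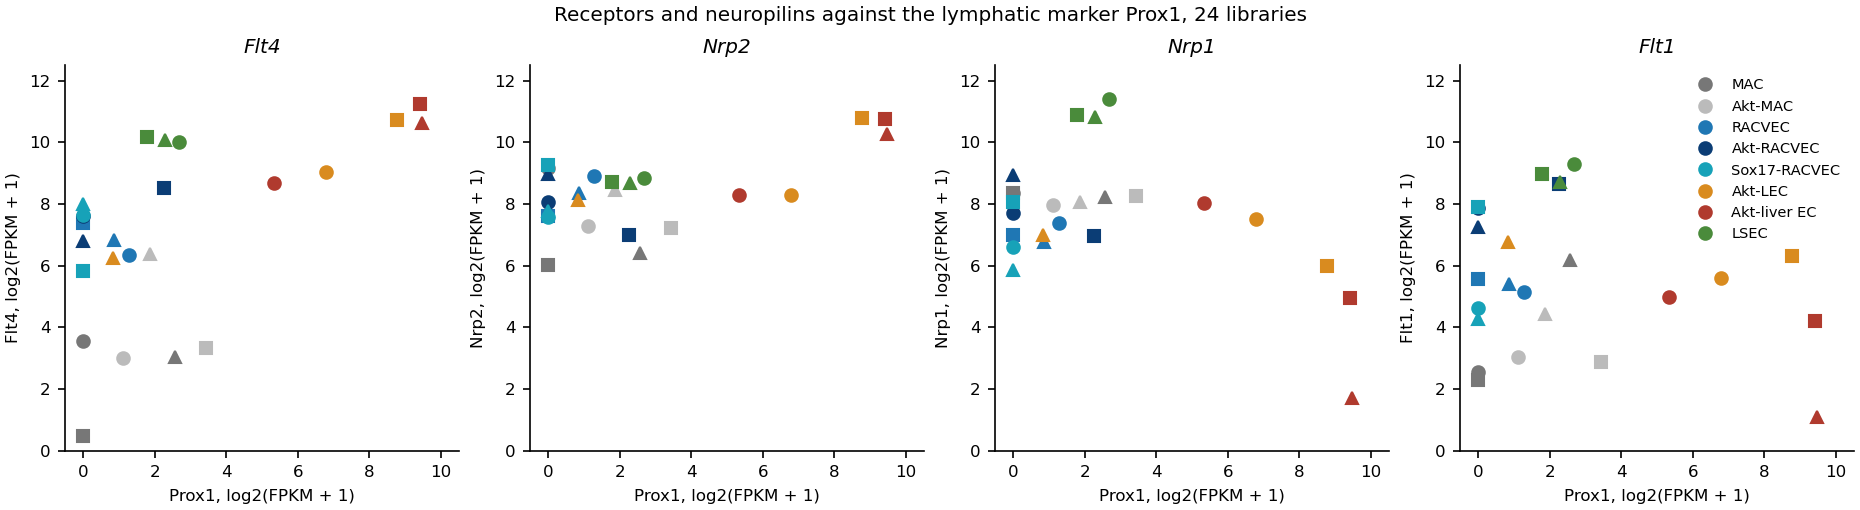
Flt4, Nrp2, Nrp1 and Flt1 against Prox1, both as log2(FPKM + 1), for the 24 libraries coloured by group (symbols mark library 1, 2 and 3). The 3 libraries with the highest Prox1 (433 to 703 FPKM) sit at the top for Flt4 and Nrp2, and Akt-liver EC 2 and 3 sit low for Nrp1 (30.03 and 2.30 FPKM) and Flt1 (17.4 and 1.13).

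Vegfa (mm9 chr17:46153942-46169326), the ligand of Kdr and Flt1, was lowest in the LSECs, at 23.8, 24.7 and 26.1 FPKM, below every other library. It was at 292, 225 and 425 FPKM in the MACs, 256, 619.8 and 349 in the Akt-MACs and 392, 96.3 and 281 in the RACVECs. The Akt-RACVECs held 193, 107 and 141 FPKM, the Sox17-RACVECs 79.3, 112 and 102, the Akt-LECs 418, 122.8 and 54.6 and the Akt-liver ECs 91.9, 96.1 and 73.8. Vegfa differed by -1.41 between Akt-RACVECs and Akt-MACs (SE 0.56, adjusted p = 0.0728) and differed by -1.18 between Sox17-RACVECs and RACVECs (SE 0.56, unadjusted p = 0.0474, adjusted p = 0.744; -1.28 without Sox17-RACVEC 2), and neither passed. Mouse Vegf-A protein was part of the conversion medium, and the RNA levels do not measure it.

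Vegfb (mm9 chr19:7056963-7062141), a ligand of Flt1, was the most even member, between 56.5 and 249.7 FPKM in all libraries (F test, adjusted p = 0.0909). In the LSECs it was at 59.0, 65.2 and 58.7 FPKM, and Akt-RACVEC 2 (56.5) was the only library below them.

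Pgf (mm9 chr12:86507589-86518246), also a ligand of Flt1, was low in amniotic cells and present in every converted or cultured endothelial library. It was at 15.2, 0 and 37.4 FPKM in the MACs and 4.38, 10.03 and 4.14 in the Akt-MACs, against 65.5, 49.3 and 222 in the RACVECs. The Akt-RACVECs spread from 14.9 to 907 FPKM (101, 907 and 14.9) and the Sox17-RACVECs held 307, 30.2 and 569. The Akt-LECs held 181, 68.8 and 539 FPKM. RACVECs and MACs did not overlap and differed by 3.41 (SE 1.37, unadjusted p = 0.0223, adjusted p = 0.177), which did not pass.

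Vegfc (mm9 chr8:55162886-55271808) and Vegfd (chrX:160811310-160840582, listed in older annotation as Figf) are the ligands of Flt4. Vegfc was at 53.6, 41.2 and 56.1 FPKM in the LSECs, 49.7, 18.6 and 45.5 in the Akt-RACVECs and 22.2, 5.31 and 5.58 in the RACVECs, and it was listed at 0 in Sox17-RACVEC 1 and 3 but at 33.5 in the library labelled Sox17-RACVEC 2. It did not pass the F test over the groups (adjusted p = 0.0874). Vegfd was at 425, 40.7 and 18.4 FPKM in the MACs and at 57.6, 42.4 and 44.1 in the RACVECs, but at 11.47, 0 and 5.52 in the Akt-RACVECs, 9.56, 2.77 and 6.17 in the Sox17-RACVECs and 0, 0 and 2.47 in the LSECs. Akt-RACVECs and Sox17-RACVECs both lay below each RACVEC, with differences of -3.49 (SE 1.27, adjusted p = 0.187) and -2.88 (SE 1.27, adjusted p = 0.705; -2.48 without Sox17-RACVEC 2), and these 2 comparisons share the RACVEC libraries. Beside these values, the 8 mesenchymal markers summed to 2825 to 6496 FPKM in MACs and 2714 to 5331 in RACVECs, and to 6.04 to 394 in Akt-RACVECs and 11.9 to 2340 in Sox17-RACVECs. Against RACVECs 1 of 8 passed, lower, in Akt-RACVECs (list median -5.93) and 0 of 8 in Sox17-RACVECs (-4.00). Akt-LEC 1 and Akt-liver EC 1, the adult cultures with Col1a1, held 29.8 FPKM of Vegfd each, against 0.74 to 2.38 in the other adult cultures. The part of these markers in the Vegfd values was not tested. Against Akt-MACs, Akt-RACVECs differed in Vegfd by -2.85 (SE 1.27, unadjusted p = 0.0370, adjusted p = 0.110). Vegfc differed by 1.86 (SE 1.12, adjusted p = 0.428) between Akt-RACVECs and RACVECs. Over all 3 libraries, Sox17-RACVECs differed in Vegfc by -1.60 from RACVECs (adjusted p = 0.875), by -3.46 from Akt-RACVECs (SE 1.12, unadjusted p = 0.00610, adjusted p = 0.504) and by -2.58 from Akt-LECs (unadjusted p = 0.0331, adjusted p = 0.562). None of these passed with all 3 libraries. Without Sox17-RACVEC 2, Vegfc is listed at 0 in both libraries that remain, so no fold is given. It then did not pass against RACVECs (adjusted p = 0.483) and passed, lower, against Akt-RACVECs (0.00666) and Akt-LECs (0.0319).

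**Figure D4:**
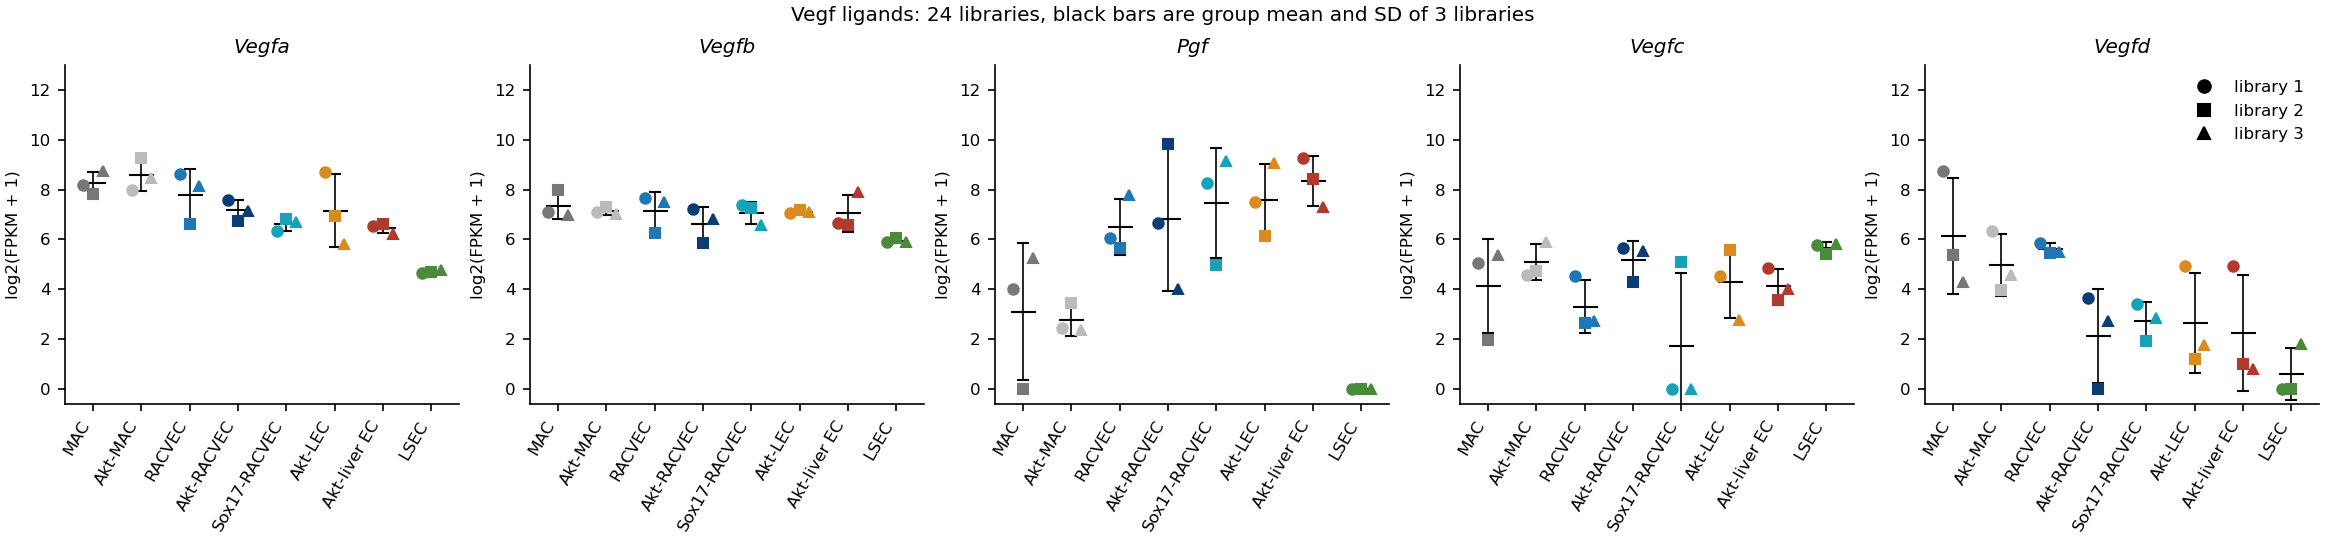
Level of the 5 ligands, as log2(FPKM + 1), in each of the 24 libraries by group (symbols mark library 1, 2 and 3, black bars the mean and SD of 3). Vegfa is lowest in LSECs (23.8 to 26.1 FPKM), Vegfb is even, Pgf is at 0 in all LSECs, and Vegfd is at most 11.47 FPKM in Akt-RACVECs.

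Over the 8 groups together, 7 of 10 members differed in the F test of limma (54.0% of all genes did), the exceptions being Nrp2, Vegfb and Vegfc. Kdr had the smallest adjusted p (3.26e-09). Without the 3 LSEC libraries, Kdr, Flt1, Flt4 and Pgf passed. The share of all genes that passed in that fit was not taken, so this is not read as a result about the members. MACs were also set against the mean of the 2 adult cultures, in which 7 of 10 members passed beside 14.8% of all genes. Kdr (-7.07, SE 0.54, adjusted p = 1.12e-07), Flt4 (-7.08, SE 0.92, 5.38e-05), Pgf (-4.87, SE 1.19, 0.00857) and Nrp2 (-2.22, SE 0.72, 0.0375) were lower in MACs, and Vegfd (3.69, SE 1.10, 0.0246), Nrp1 (2.45, SE 0.85, 0.0478) and Vegfa (1.45, SE 0.48, 0.0410) were higher. Kdr and Flt4 held under every alternative. Pgf was lost without MAC 2 (-3.32, 0.0651), Vegfd without MAC 1 (2.39, 0.186) or Akt-liver EC 3 (3.33, 0.0541), Nrp2 without MAC 2 or 3, Akt-LEC 2 or Akt-liver EC 2 or 3 (0.0712 to 0.176), Nrp1 without any MAC, Akt-LEC 2 or 3 or Akt-liver EC 2 or 3 (0.0650 to 0.126), and Vegfa without any MAC, any Akt-liver EC or Akt-LEC 2 or 3 (0.0505 to 0.157). Flt1 differed by -1.14 (SE 0.90, adjusted p = 0.390). The adult cultures of this mean include those with high Prox1 and those with mesenchymal genes.

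The balance between the receptors can be read within each library. The log2 ratio of Flt1 to Kdr was 1.28 on average in the MACs (SD 1.12), where Flt1 exceeded Kdr in each library (0.97, 0.35 and 2.52). In MAC 1 and 2 Flt1 was at only 4.87 and 3.91 FPKM, so the pseudocount weighs on these ratios. The Akt-MACs were at -0.91, -0.41 and 2.39, with Kdr above Flt1 in Akt-MAC 1 and 2. The mean ratio was -1.88 in the RACVECs (SD 0.37), -2.15 in the Akt-RACVECs (SD 0.82), -2.84 in the LSECs (SD 0.15) and -6.34 in the Akt-liver ECs (SD 2.67). The difference of RACVECs from MACs was -3.17 (SE 0.68), with p = 0.1 by exact permutation, two-sided. No smaller p can be had from 2 groups of 3, and the adjusted p over the 11 comparisons of this ratio was 0.367. The same held for Akt-RACVECs against Akt-MACs (-2.50) and Akt-liver ECs against LSECs (-3.50), both with an exact permutation p of 0.1. Akt-RACVECs and RACVECs differed by -0.26 (SE 0.52, exact permutation p = 0.7), which is within the spread of the ratio in these groups.

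Summed over the 3 receptors, the libraries held 7.13 to 91.4 FPKM in the MACs and 24.1 to 105 in the Akt-MACs, against 212 to 418 in the RACVECs, 1461 to 1782 in the Akt-RACVECs and 4868 to 5955 in the LSECs. Kdr made up 45.7% to 53.6% of the sum in RACVECs, 57.0% to 82.0% in Akt-RACVECs and 67.0% to 71.9% in LSECs, while Flt4 made up 47.0% to 64.8% in the Akt-liver ECs and exceeded Kdr in 2 of those 3 libraries. Summed ligand values moved much less. They lay between 269 and 1088 FPKM in every cultured library and between 131 and 143 in the LSECs. In the make-up of that sum, Vegfa held 32.4% to 65.7% in MACs, 51.2% to 74.8% in Akt-MACs and 35.8% to 53.0% in RACVECs. These Vegfa ranges overlapped. Pgf held 32.4% to 71.4% in Akt-liver ECs, and Vegfc held 31.4% to 39.3% in LSECs, the highest Vegfc share of any group. The log2 ratio of Vegfa to Pgf was 5.16 in MACs (SD 2.33) and 1.29 in RACVECs (SD 1.15), a difference of -3.87 (SE 1.5, exact permutation p = 0.1, adjusted p = 0.367 over 11 comparisons).

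**Figure D5:**
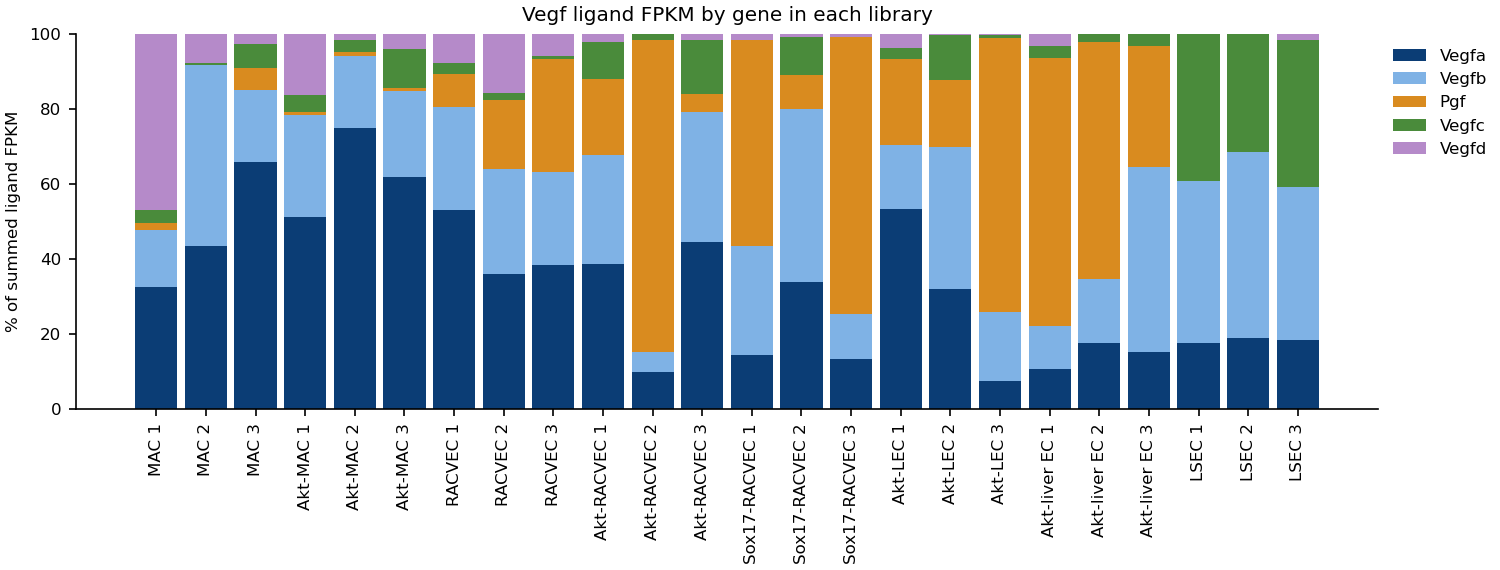
Share of each ligand gene in the summed FPKM of the 5 ligands, in percent, 1 bar for each of the 24 libraries. Vegfa holds 51.2% to 74.8% in Akt-MACs, Pgf 32.4% to 71.4% in Akt-liver ECs and 0% in LSECs, where Vegfb and Vegfc make up most of the sum.

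Only Vegfa and Nrp2 (6 RefSeq rows each) and Vegfb (2 rows) had more than 1 transcript in the files. Cufflinks divides shared reads between such rows, so shares are less certain than sums. In Vegfa, NM_009505 had the highest median share in 6 of 8 groups. The median share of NM_009505 was 34.8% in MACs, 40.5% in RACVECs, 34.7% in Akt-RACVECs and 27.3% in LSECs, with ranges that overlapped. In Nrp2, NM_001077404 had the highest median share in 7 of 8 groups (34.6% to 45.2%), the exception being the MACs, where NM_001077407 did. The latter held 28.8% to 63.7% in MACs and 7.1% to 15.2% in LSECs, which was not tested. In Vegfb, NM_011697 held 46.8% to 73.3% everywhere. Flt1 has the single row NM_010228, so that soluble forms were not resolved.

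The other genes of the pathway are set beside the share of all genes that passed, 2.71% in RACVECs against MACs and 0.261% in Akt-RACVECs against RACVECs. A count of 0 in a list is near such a share and is not read as a result on the list. Of 27 tested genes of signalling next to Vegfr2, 0 passed in RACVECs against MACs (median log2 fold change 0.13, against 0 over all genes) and in Akt-RACVECs against RACVECs (0.60, against 0). The same 2 comparisons called 0 of 18 genes that Vegf induces in endothelium (medians 0.08 and -0.34) and 0 of 16 hypoxia genes (1.05 and 0.16). Of 13 other co-receptors and plexins, 1 passed in RACVECs against MACs, the integrin subunit Itgb3, which was higher by 3.13 (adjusted p = 0.0449), and of 8 genes that process Vegfc and Vegfd 0 passed. In Akt-MACs against MACs, Prkcb (4.94, adjusted p = 0.0266), a protein kinase C that leukocytes also use, and the phosphatase Ptpn1 (1.18, 0.0438) were higher. The macrophage markers were higher in the same comparison, 6 of 7, and their part in these 2 calls was not tested.

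In Akt-RACVECs against Akt-MACs, 6 of the 27 signalling genes were higher and 5 lower (median -0.14, against -0.09 over all genes), beside 19.5% of all genes, 921 higher and 2003 lower. Of the 7 macrophage markers 6 were lower in this comparison, and their part in the lower calls was not tested. The receptor phosphatase Ptprb, which acts on Tek and VE-cadherin, was higher by 5.48 (adjusted p = 0.000920), whereas the phosphatase Ptprj (-4.96, 0.000167), the lipid kinase Sphk1 (-5.40, 0.00109) and Prkcb (-5.30, 0.00409) were lower. Of the 18 genes that Vegf induces, 3 were higher, the apelin gene Apln (7.44, 0.00186), the endothelial nitric oxide synthase Nos3 (7.14, 0.00695) and the Notch ligand Dll4 (4.89, 0.00236), and 1 was lower, the tissue factor F3 (-6.93, 0.0153), with a list median of -0.64. Of the 16 hypoxia genes Egln3 was higher (3.15, 0.0262) and Ndrg1 lower (-3.46, 0.0184), and Ccbe1, a cofactor of Vegfc processing, was lower (-3.88, 0.0383). Of the 13 co-receptors and plexins, 2 were higher, led by Itgb3 (4.37, 0.00152), and 5 lower, led by the glypican Gpc1 (-5.66, 0.0215).

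In Akt-liver ECs against LSECs, where 27.0% of all genes passed, 3 of the 27 signalling genes were higher, led by the kinase Src (4.22, adjusted p = 5.87e-06), and 5 lower, led by Ptprb (-4.06, 0.00327), at a list median of 0.33 against 0.08 over all genes. Among the 18 Vegf-induced genes, Apln (6.76, 0.00144), the Tek ligand Angpt2 (5.31, 0.00599) and Dusp4 (2.01, 0.0477) were higher and Rcan1 (-1.91, 0.0155) was lower. Among 16 hypoxia genes, Egln3 (5.18, 0.000514), the glucose transporter Slc2a1 (4.75, 1.14e-06) and Pgk1 (2.57, 0.000208), which are induced when oxygen is low, were higher, and Epas1 (-2.46, 0.0197) was lower. Of the 13 co-receptors and plexins, 4 were higher, led by Itgb3 (3.88, 0.00136), and Sdc3 was lower (-1.96, 0.0302). The processing protease Furin was higher (2.11, 9.57e-06), and Plg, which hepatocytes make, was lower (-5.64, 3.73e-09).

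In MACs against the mean of the adult cultures, where 14.8% of all genes passed, 2 signalling genes were higher and 5 lower, led by Ptprb (-6.43, adjusted p = 5.33e-05), and 3 Vegf-induced genes were lower, Nos3 (-6.76, 0.00452), Dll4 (-5.84, 0.000177) and Angpt2 (-4.22, 0.0191). Of the co-receptors and plexins 6 were higher, led by Gpc1 (4.93, 0.0238), and 3 lower, led by Itgb3 (-4.31, 0.000559), while 0 hypoxia and 0 processing genes passed.

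The genes whose level over the 24 libraries was most like that of each member by Pearson correlation are given as a description, since libraries share groups. The choice depends on that measure: of the 3 genes, 0 were among the closest 3 by Spearman for Kdr, Nrp1, Nrp2, Vegfb and Vegfc, 1 for Flt4, Vegfa and Pgf and 2 for Flt1 and Vegfd. For Kdr they were Gimap6 (Pearson r 0.965, Spearman 0.909), the natriuretic peptide receptor Npr1 (0.962, 0.950) and Arhgef15 (0.959, 0.838). For Flt1 they were Kcnq1 (0.847), Dennd5b (0.845) and Zfp366 (0.834), and for Flt4 they were Arhgef7 (0.902), Acsl5 (0.897) and Ica1 (0.895). For Nrp1 they were the integrin subunit Itga1 (0.885), Fas (0.865) and Tmem179b (0.859). For Vegfd they were the pericyte and fibroblast gene Cd248 (0.897), Gng8 (0.885) and Mme (0.881). For Pgf they were Rars (0.908), Eif2b2 (0.905), which is also on chromosome 12, and Usp10 (0.903). The closest genes of Vegfa (Tmem184c, Kctd1 and Dvl3) reached 0.871, of Vegfc (Sat1, Fggy and Fnbp1l) at most 0.854, of Nrp2 (Slc45a3, Lmo2 and Fbxl22) at most 0.802, and of Vegfb (Slc6a9, Cry2 and Anxa4) at most 0.772.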

How the data were processed

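RNA of 24 mouse libraries, 3 in each of 8 groups, was sequenced by the authors as paired 51-base reads, mapped with TopHat to mm9 (printed as mmp9 in the methods) and turned into FPKM with Cufflinks, with upper-quartile normalization and sequence-bias correction. The deposited FPKM, 1 value for each of 27583 RefSeq transcripts, were used as they stand. Versions are not given in the sources used here, depth is unknown, and a value of 0 may be a failed estimate. Per the methods a replicate of MACs is an independently isolated culture. The samples are called individual isolates in the study, without saying whether each adult isolate is a separate animal.

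Symbols were joined for 26934 transcripts and summed to 22282 genes. limma 3.58.1 (R 4.3.3) was fitted to log2(FPKM + 1) with a trend over all 8 groups, with Benjamini-Hochberg adjustment over the 14964 genes that averaged 1 FPKM or more. Fold changes on this scale understate those of low genes. In simulated data for RACVEC against MAC over 14964 genes, 186 of 200 genes changed by 3 on the log2 scale were recovered with 15 false calls. The changed genes were drawn only from those with higher mean levels, so this recovery does not cover genes near 0 in a group. Ratios were tested by exact two-sided permutation, and shares, ratios and figures were made in Python 3.11.15. Group shifts of the median gene lay between -0.114 and 0.0678. Summed FPKM per library lay between 1689486 and 2317294. Gene positions are those of GENCODE M1 on mm9. Of the members, all 10 matched the RefSeq promoter table.

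All 10 members are named. Statistics are given where a member passed, had an unadjusted p below 0.05 or a log2 fold change past 1 or -1. Of each list, up to 4 called genes with the largest change per comparison are named, and 3 genes of like pattern per member. The members and gene lists were chosen with earlier results of these data known. Lists of markers named here were those of endothelial, lymphatic endothelial, mesenchymal, epithelial, macrophage, hepatocyte and red cells. Alternatives were other pseudocounts (0.1 and 10) and filters, fits of only the compared groups, a replicate block, median scaling, the highest transcript row, the criterion of the study's methods and leaving out libraries.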

Additional observations from a re-analysis of the deposited data

How the results depend on the processing

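Of the alternatives to member fold changes that passed, 233 kept the direction and the call and 77 lost the call, and of those that did not pass 652 stayed so, 7 became calls and 3 reversed. The number of members that passed in RACVECs against MACs (2) was 1 with a pseudocount of 10, 1 to 2 leaving out 1 library, 3 (with Nrp1, lower) by the criterion of the study's methods, and 0 when only the compared groups were fitted, with or without a replicate block. In Akt-RACVECs against RACVECs (0) it was 1, Kdr, with a pseudocount of 10, with genes averaging at least 10 FPKM, or without Sox17-RACVEC 2 in the common fit, and 2, Kdr and Vegfd, by the same criterion. That criterion, an unadjusted test, was used here on summed genes with 1 added to mean FPKM. Over all genes it called 214 higher and 221 lower of 15810 in RACVECs against MACs. For Akt-RACVECs against RACVECs it called 245 and 273 of 15118. For Sox17-RACVECs against RACVECs it called 50 and 101 of 14772. The paper reports more genes there and also in RACVECs against MACs. It names Vegfr2 (Kdr) among the higher genes of Sox17-RACVECs and of Akt-RACVECs, each against RACVECs. The criterion called 192 and 134 of 15671 in RACVECs against Akt-LECs, and 498 and 692 of 16279 in Akt-RACVECs against Akt-MACs. It gave 1 member, Vegfd, in Sox17-RACVECs against RACVECs (0) and in RACVECs against Akt-LECs (0), and 1, Kdr, in Akt-RACVECs against Akt-MACs (4). The last was 2 to 4 leaving out 1 library, 1 without Akt-MAC 2 and 3, 2 in a fit of only the compared groups and 0 with the replicate block. Leaving out 1 library gave 0 to 1 for Sox17-RACVECs against Akt-RACVECs or Akt-LECs (0 each), 3 to 5 for Akt-liver ECs against LSECs (6) and 3 to 7 for MACs against the adult cultures (7), where a fit of only those groups gave 2 and the replicate block 3. Without LSECs the F test called Kdr, Flt1, Flt4 and Pgf of the 7 members, with no share of all genes to set beside them. Vegfd in Akt-MACs against MACs (-1.17) ran from -2.09 to 0.14 leaving out 1 library, reversed without MAC 1, and was 0.23 without Akt-MAC 2 and 3, which also took the Flt4 interaction from -1.10 to 0.13. Vegfc in Akt-liver ECs against LSECs (-1.53) passed in a fit of those groups, without a block (adjusted p = 0.0310) and with the replicate block (0.0479). The cause of these changes was not tested.

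Samples share only a replicate number. Correlations of same-numbered deviations ran from -0.49 to 0.57 and were not above 0.1 in all 3 pairs of any comparison. Of the 3 libraries in the first-named group of a comparison, at most 2 correlated best with their own number in the other group. Depth is unknown, so no limit of detection can be set, and 3 libraries a group leave wide intervals.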
